A study of Capra hircus with 9 samples.

Results

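The collagen genes of the goat mammary gland were taken as every row of the expression table whose symbol has the form COL, a type number, A and a chain number. This rule found 44 of the 23499 genes in the table, and no expression value was used to choose them. They were kept in 3 classes: 11 fibrillar collagen genes, 8 basement membrane collagen genes (the chains of type IV with types XV and XVIII) and 25 other collagen genes. Mammary tissue had been taken at slaughter from 9 healthy Laoshan dairy goats of parity 3, with a mean age of 4 years, and each goat gave 1 RNA library. The stages were late lactation (LL, 240 days postpartum, n = 3), the dry period (DP, 300 days postpartum, n = 3) and late gestation (LG, 140 days after mating, n = 3). The labels name no treatment, no genotype and no pregnancy status for the DP goats.

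Collagens are secreted triple helices that give connective tissue its strength and basement membranes their mesh. Fibrillar collagens, with types I and III the most abundant, form the fibrils of the stroma around the ducts and lobules, and type V sits inside those fibrils and sets their width. Type IV collagen builds the sheet beneath the milk-secreting and myoepithelial cells and around capillaries, while types VI, XII and XIV lie between fibrils and cells. In the mammary gland the stroma and this sheet are rebuilt at each turn of lactation, drying off and pregnancy.

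The levels are FPKM, fragments scaled to gene length and to the mapped total, so they can be compared between genes. The 10 most abundant genes took 80.6 to 86.0% of the summed FPKM in LL, compared with 51.5 to 56.4% in DP and 53.4 to 57.4% in LG, so that the remaining genes share a smaller total in LL. Fold changes were therefore computed after dividing each library by a median-ratio scaling factor, which was 0.498 to 0.605 in LL, against 1.44 to 1.53 in DP and 1.198 to 1.31 in LG. The third DP library, DP3, stood apart: across genes its log2 values correlated with those of DP1 and DP2 at r = 0.92 and 0.945, against 0.956 between DP1 and DP2. It was the highest DP library for 24 of the 30 collagen genes tested (80%) and for 34.9% of all genes tested, and values without it are given beside many of the results that it moved. In bulk tissue, fewer cells of a type and less RNA per cell cannot be told apart.

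Of the 44 collagen genes, 30 reached 0.5 FPKM in at least 3 libraries and were tested, namely 8 fibrillar, 6 basement membrane and 16 other genes. These are not all members, and 10 of the 30 stayed under 0.5 FPKM in every LL library, so they could enter only through DP or LG. A gene was called when its limma p, adjusted over all genes tested, was under 0.05 and its log2 fold change was at least 1 in size. Over all genes tested, 22.6% were called (DP against LL), 17.3% (LG against LL) and 13.3% (LG against DP). In DP against LL, 17 of 30 collagen genes were called higher, where 13.8% of all genes tested were called higher, and 0 were called lower, where the background was 8.79%. At an unadjusted p under 0.05, COL7A1 and COL9A1 were lower, 2 genes in all, and COL7A1 alone also had an adjusted p under 0.05, where 28.6% of all genes were lower by that rule. In LG against LL, which shares the LL libraries, 9 of 30 were called higher against a background of 10.7%, and 0 were called lower against a background of 6.61%. The genes lower at an unadjusted p under 0.05 were COL27A1 and COL7A1, 2 in all, and both held at the adjusted p (background 24.6%). In LG against DP, 3 of 30 were called higher (background 6.37%) and 7 lower (background 6.88%).

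The class medians differed. The median log2 fold change in DP against LL was 1.83 for fibrillar, 0.475 for basement membrane and 1.27 for other collagen genes, beside 0.0041 over all genes tested. Without DP3 these medians were 1.37, 0.194 and 0.823. In LG against LL the medians were 1.44, 0.55 and 0.337 in the same order, beside 0.019 over all genes. Among the 20 genes that reached 0.5 FPKM in at least 1 LL library, 13 were called higher in DP and 5 in LG. The backgrounds of 13.8% and 10.7% cover all genes tested, whatever their level in LL. The share of all genes under the same condition was not computed. Of the 17 genes called in DP against LL, 13 stayed called whichever 1 library was left out, and of the 9 called in LG against LL, 7 did. Without DP3, 13 collagen genes were called higher in DP against LL and 12 in LG against LL, where 1927 and 1560 of all 14449 genes tested were.

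**Figure D1:**
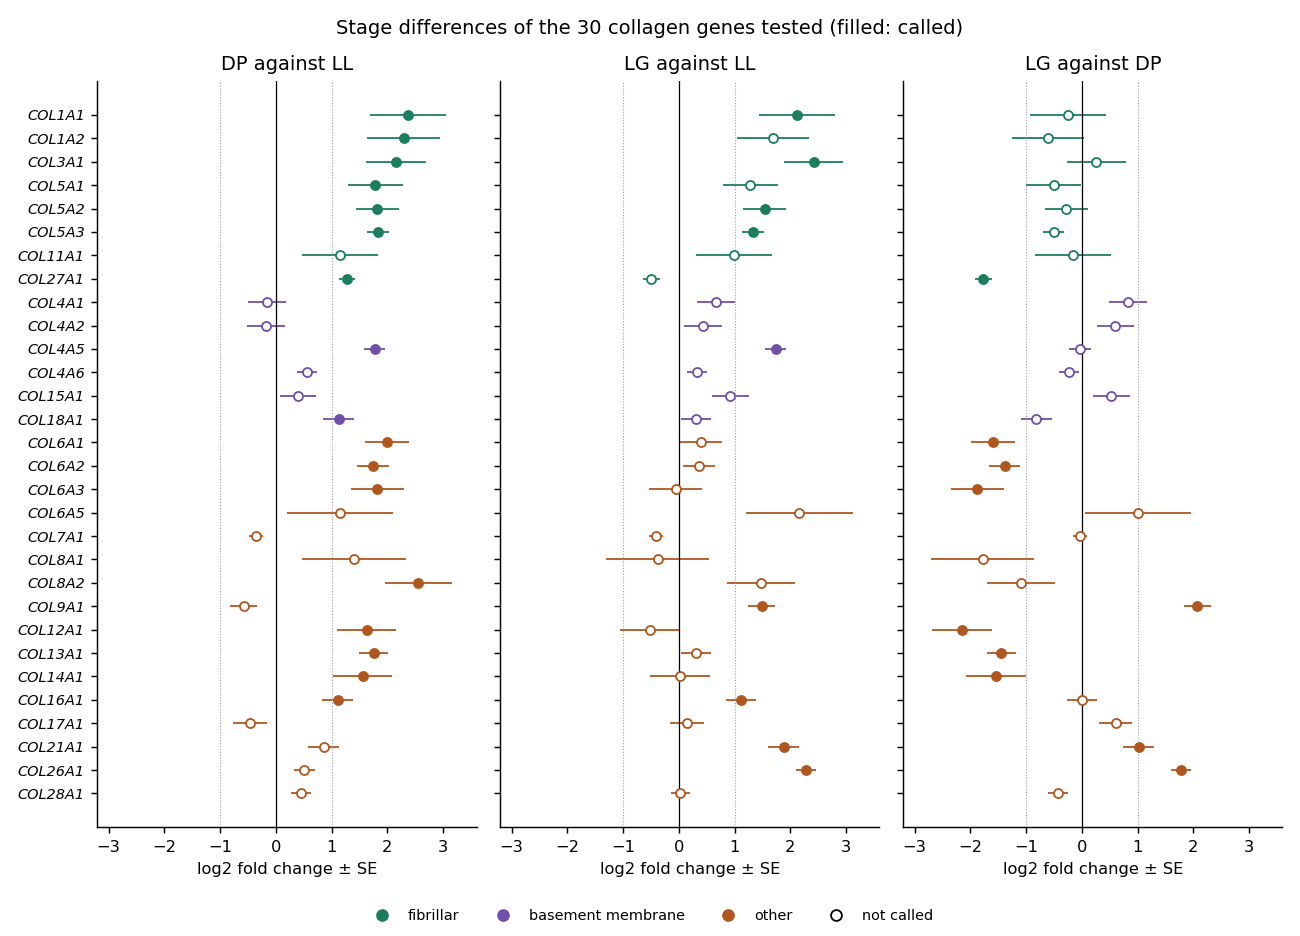
Log2 fold changes (x axis, log2 scale after adding 1 to the scaled FPKM) of the 30 collagen genes tested, with bars of ± 1 SE from limma, in DP against LL, LG against LL and LG against DP; colour gives the class, filled points are called genes and dotted lines mark a log2 fold change of 1 in size. In DP against LL the filled points all lie to the right, with 17 genes called higher and 0 lower, while in LG against DP 7 filled points lie to the left and 3 to the right.

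The fibrillar collagens held the most abundant transcripts and were called higher in DP than in LL for 7 of the 8 genes tested (background 13.8%). COL3A1, the type III chain (chromosome 2, 129111216 to 129151444), was the highest collagen transcript in all 9 libraries. Its FPKM was 30.1, 30.2 and 53.5 in LL, compared with 219, 336 and 1149 in DP and 321, 580 and 483 in LG. Every DP and LG library lay above every LL library, and DP and LG overlapped. The log2 fold change of COL3A1 was 2.16 ± 0.53 (SE, n = 3 per stage) in DP against LL (adjusted p = 0.0072) and 2.42 ± 0.53 in LG against LL (adjusted p = 0.00458). Leaving out DP3 lowered the first of these to 1.45, which was still called.

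Type I collagen, the main load-bearing fibril, is built from the chains of COL1A1 and COL1A2. COL1A1 (chromosome 19, 36105883 to 36123687) had 7.52, 9.37 and 16.0 FPKM in LL, against 54.5, 127 and 475 in DP and 76.4, 187 and 84.8 in LG. COL1A2 (chromosome 4, 108819725 to 108857001) had 17.9, 19.7 and 32.4 FPKM in LL, compared with 113, 255 and 933 in DP and 116, 259 and 155 in LG. Both genes were lowest in the 3 LL libraries, without overlap, and their highest value was in DP3. COL1A1 was called in both comparisons with LL, at 2.37 ± 0.68 in DP (adjusted p = 0.0148) and 2.12 ± 0.68 in LG (adjusted p = 0.0263). For the latter, the adjusted p was 0.0771 without LL1, 0.0709 without LL2 and 0.0943 without LG2. COL1A2 was called in DP, at 2.29 ± 0.65 (adjusted p = 0.0137), and was 1.68 ± 0.65 in LG (adjusted p = 0.0536), where leaving out DP1 or DP3 gave adjusted p of 0.0147 and 0.00505.

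The type V chains, which nucleate and thin the fibrils, gave values of the same sign. COL5A1 had 2.38, 2.19 and 3.89 FPKM in LL, against 14.6, 20.7 and 76.5 in DP and 13.5, 20.9 and 17.1 in LG. COL5A2 had 3.46, 4.15 and 5.39 FPKM in LL, compared with 30.6, 30.2 and 91.0 in DP and 22.1, 37.8 and 34.1 in LG. The LL libraries again lay below all others for both genes. In DP against LL the log2 fold change was 1.79 ± 0.50 for COL5A1 (adjusted p = 0.0127) and 1.82 ± 0.39 for COL5A2 (adjusted p = 0.0033). Without DP3 these were 1.08 and 1.29, both still called. In LG against LL it was 1.29 ± 0.50 for COL5A1 (adjusted p = 0.0545, but 0.025 without DP1 and 0.00126 without DP3) and 1.54 ± 0.39 for COL5A2 (adjusted p = 0.00859). COL5A3, the least abundant type V chain, went from at most 0.17 FPKM in LL to 3.78 to 7.26 in DP and 2.18 to 3.29 in LG, and was called in both comparisons, at 1.83 ± 0.19 (adjusted p = 5.5e-05) and 1.33 ± 0.19 (adjusted p = 0.000504).

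COL27A1, a fibrillar collagen best known from cartilage, had another course. Its FPKM was 0.53, 0.36 and 0.57 in LL, against 4.46, 5.12 and 6.16 in DP and 0.59, 0.38 and 0.29 in LG. The 3 DP libraries stood above the 6 others, and without DP3 the gene was still called, at 1.15. The log2 fold change was 1.28 ± 0.15 in DP against LL (adjusted p = 0.00011) and -1.77 ± 0.15 in LG against DP (adjusted p = 7.38e-05); after quantile normalization the first was 0.875 and no longer called. COL11A1, a minor fibril chain, had 13.1 FPKM in DP3 and 0.58 and 0.07 in the other DP libraries, beside 0.93 to 1.97 in LG and at most 0.09 in LL, and was not called in any comparison, though without DP2 it was called in DP against LL (1.73, adjusted p = 0.0491).

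**Figure D2:**
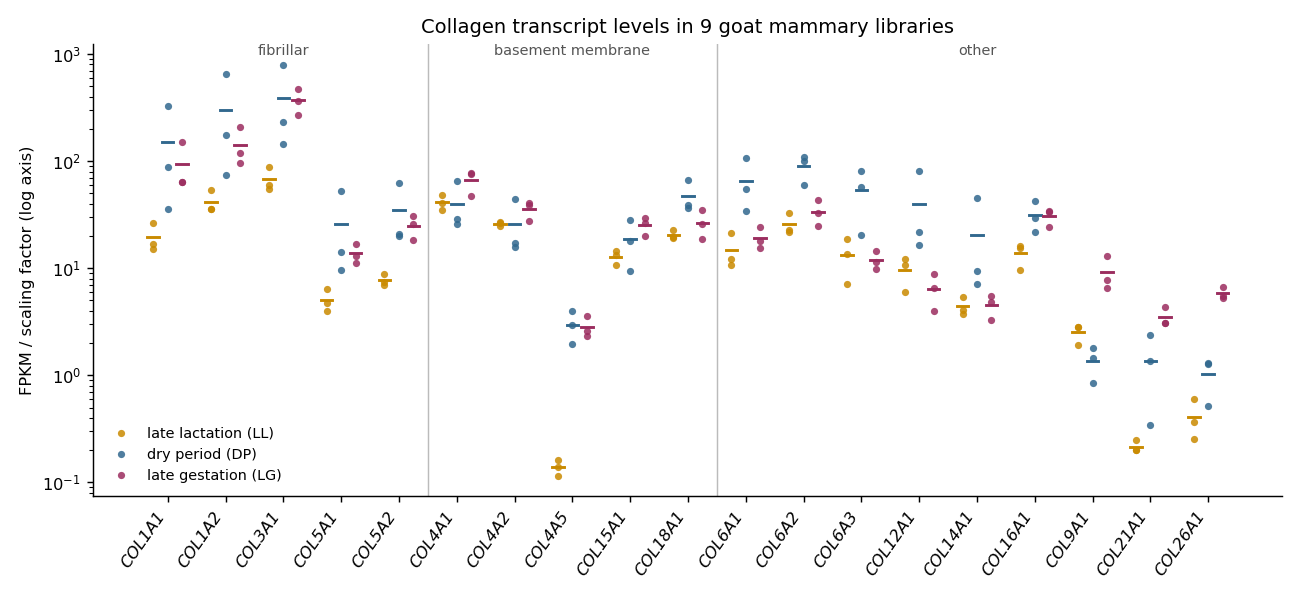
FPKM divided by the scaling factor of the library (y axis, log scale) for 19 collagen genes in 9 goat mammary libraries; points are single goats, short lines are means of 3 and colours are stages. For COL1A1, COL1A2, COL3A1, COL5A1 and COL5A2 the LL points lie below all DP and LG points, for the type VI genes the DP points are mostly highest, and for COL9A1, COL21A1 and COL26A1 the LG points are highest.

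Of 6 basement membrane collagen genes tested, 2 were called higher in DP against LL (background 13.8%) and 1 in LG against LL (background 10.7%). With all 9 libraries and median-ratio scaling, the genes of the common type IV network were called in no comparison. COL4A1 (chromosome 12, 1302093 to 1432028) and COL4A2 (chromosome 12, 1145089 to 1301982) code for the chains of that network. COL4A1 had 23.9, 22.5 and 21.1 FPKM in LL, compared with 43.7, 37.2 and 93.8 in DP and 56.9, 94.3 and 103 in LG. COL4A2 had 13.5, 14.5 and 14.9 FPKM in LL, against 26.1, 22.5 and 63.6 in DP and 33.1, 50.6 and 50.9 in LG. The deposited values were lowest in LL for both, but after scaling the LL and DP libraries overlapped. The log2 fold change in DP against LL was -0.16 ± 0.34 for COL4A1 (adjusted p = 0.7) and -0.18 ± 0.34 for COL4A2 (adjusted p = 0.67), and the sign turned for both under quantile normalization, under scaling to the summed FPKM without the 10 highest genes and with no scaling. In LG against LL the log2 fold change was 0.67 ± 0.34 for COL4A1 (adjusted p = 0.125) and 0.43 ± 0.34 for COL4A2 (adjusted p = 0.323). With no scaling both were called higher than in LL, at 1.21 and 1.17 in DP and 1.82 and 1.56 in LG. Under that setting 7979 (DP) and 6698 (LG) of all 14701 genes tested were called higher. Set against DP, LG was at 0.83 ± 0.34 for COL4A1 (adjusted p = 0.0835) and 0.61 ± 0.34 for COL4A2 (adjusted p = 0.194). Without DP3 both were called higher in LG than in DP, at 1.25 (adjusted p = 0.00551) and 1.07 (adjusted p = 0.00348).

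COL4A5, a type IV chain of a more restricted network, had 0.07, 0.09 and 0.07 FPKM in LL, compared with 4.52, 2.82 and 5.79 in DP and 2.79, 3.19 and 4.69 in LG. Its log2 fold change against LL was 1.77 ± 0.19 in DP (adjusted p = 6.9e-05) and 1.73 ± 0.19 in LG (adjusted p = 0.000108), and both calls held when any 1 library was left out. COL4A6, its neighbour on the X chromosome, had 0.21 to 0.40 FPKM in LL, against 1.33 to 2.92 in DP and 0.96 to 1.31 in LG. In DP it was 0.557 above LL on the log2 scale (adjusted p = 0.0233), under the fold threshold, but it was called there with no scaling (1.13) and with a pseudocount of 0.1 (1.07). COL4A3 and COL4A4, whose products join that of COL4A5 in the kidney filter, reached at most 0.15 and 0.38 FPKM and were not tested.

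Types XV and XVIII link basement membranes to the stroma, and type XVIII is the precursor of the endostatin fragment. COL18A1 had 9.83, 12.6 and 11.6 FPKM in LL, compared with 59.1, 53.1 and 97.0 in DP and 22.3, 43.0 and 34.0 in LG. The deposited values of the 3 stages did not overlap, with DP highest. After scaling, LG (18.6 to 34.9) overlapped LL (19.1 to 22.8). In LG against LL the log2 fold change was 0.31 ± 0.27 (adjusted p = 0.366), not called, though it was called with no scaling (1.43). COL18A1 was called in DP against LL at 1.12 ± 0.27 (adjusted p = 0.00642), and without DP3 it was 0.85 (adjusted p = 0.0149), under the fold threshold. Between LG and DP it was -0.81 ± 0.27 (adjusted p = 0.0424), and it was called lower in LG without LG2 (-1.03), with no scaling (-1.05), after quantile normalization (-1.15) and with scaling to the sum without the 10 highest genes (-1.27). COL15A1 had 7.22, 7.30 and 6.50 FPKM in LL, against 27.7, 13.7 and 40.6 in DP and 23.7, 32.8 and 39.1 in LG. In DP against LL its log2 fold change was 0.39 ± 0.33 (adjusted p = 0.32), not called. It was called there with no scaling (1.70) and with scaling to the sum without the 10 highest genes (1.06). In LG against LL the value of 0.92 ± 0.33 (adjusted p = 0.0389) was just under the fold threshold. The gene was called in LG against LL without LG1 (1.09), with no scaling (2.01) and with scaling to the sum without the 10 highest genes (1.15).

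Among the other collagens, the 3 abundant type VI genes were highest in DP. Type VI collagen forms beaded filaments that tie cells to the surrounding fibrils. COL6A1 (chromosome 1, 145631195 to 145652325) had 5.30, 6.75 and 13.0 FPKM in LL, compared with 52.4, 79.9 and 154 in DP and 18.4, 29.9 and 23.4 in LG. COL6A2 had 10.8, 12.6 and 19.8 FPKM in LL, against 91.4, 145 and 157 in DP and 29.7, 53.3 and 43.0 in LG. COL6A3 had 6.71, 3.96 and 11.4 FPKM in LL, compared with 31.0, 83.5 and 117 in DP and 11.7, 18.0 and 15.2 in LG. For each of these genes every DP library lay above every LG and LL library.

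The log2 fold changes in DP against LL were 1.99 ± 0.39 for COL6A1 (adjusted p = 0.00227), 1.74 ± 0.28 for COL6A2 (adjusted p = 0.000718) and 1.82 ± 0.47 for COL6A3 (adjusted p = 0.00933). In LG against LL they were 0.39 ± 0.39, 0.36 ± 0.28 and -0.05 ± 0.47, none of them called. With no scaling COL6A1 (1.47, adjusted p = 0.0063) and COL6A2 (1.49, adjusted p = 0.00102) were called higher in LG, where 45.6% of all genes tested were called higher under that setting, and with no scaling or with scaling to the sum without the 10 highest genes COL6A3 turned positive. In LG against DP all 3 genes were called lower, at -1.60 ± 0.39 (adjusted p = 0.0118), -1.38 ± 0.28 (adjusted p = 0.00472) and -1.87 ± 0.47 (adjusted p = 0.0136), also without DP3. COL6A5, which can stand in for the COL6A3 chain, had no stage pattern: it was 14.5 FPKM in DP2, 10.3 in LG1 and 13.1 in LG3, and at most 0.66 in the 6 other libraries. It was not called, although without DP2 or LG2 it was called in LG against LL (adjusted p = 0.0305 and 0.0165).

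Fibril-associated collagens with interrupted helices coat the fibril surface, and the genes of this group split by stage. COL12A1 had 2.96, 5.97 and 7.42 FPKM in LL, against 24.99, 31.1 and 117 in DP and 4.78, 11 and 8.51 in LG, so that DP stood above LL and LG, which overlapped. Its log2 fold change was 1.63 ± 0.53 in DP against LL (adjusted p = 0.0251) and -2.15 ± 0.53 in LG against DP (adjusted p = 0.0121). Without DP3 these were 0.944, under the fold threshold, and -1.45, still called. COL14A1 had 2.03, 2.08 and 3.24 FPKM in LL, compared with 10.99, 13.6 and 64.9 in DP and 3.92, 6.73 and 6.32 in LG. It was called at 1.56 ± 0.53 in DP against LL (adjusted p = 0.0305) and -1.54 ± 0.53 in LG against DP (adjusted p = 0.0483), and it is the least firm of these calls, since without DP3 the values were 0.783 and -0.757 and neither was called, and leaving out LL1, LL2 or LL3 also ended both calls (adjusted p = 0.053 to 0.0845 and 0.0652 to 0.0665). Leaving out LG1, LG2 or LG3 ended the second alone (adjusted p = 0.134, 0.0762 and 0.0955). For COL12A1, the call against LL was also lost without LL1 (adjusted p = 0.0887) or LL2 (adjusted p = 0.0509).

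COL16A1, a related collagen that also occurs near basement membranes, was the one abundant gene of the group called in both comparisons with LL. It had 4.77, 9 and 9.35 FPKM in LL, against 33.3, 42.2 and 61.1 in DP and 41.0, 41.0 and 32.0 in LG. DP and LG overlapped and both lay above LL. The log2 fold change was 1.11 ± 0.27 in DP (adjusted p = 0.007) and 1.12 ± 0.27 in LG (adjusted p = 0.00754). Without LL1 the values were 0.871 and 0.886, and without DP3 the first was 0.864, all under the fold threshold.

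The 3 collagen genes higher in LG than in both other stages were low-abundance members. COL9A1, a chain of the type IX collagen known from cartilage fibrils, had 1.41, 1.56 and 1.15 FPKM in LL, compared with 2.23, 1.23 and 2.58 in DP and 9.38, 16.1 and 8.59 in LG. COL21A1, a fibril-associated collagen, had 0.10, 0.11 and 0.15 FPKM in LL, against 2.10, 0.50 and 3.39 in DP and 3.70, 5.41 and 4.03 in LG. COL26A1, a collagen-like secreted protein, had 0.30, 0.14 and 0.22 FPKM in LL, compared with 2, 1.82 and 0.75 in DP and 6.34, 6.85 and 8.83 in LG. In all 3 genes the LG libraries lay above the 6 others.

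In LG against LL the log2 fold change was 1.49 ± 0.24 for COL9A1 (adjusted p = 0.000964), 1.88 ± 0.28 for COL21A1 (adjusted p = 0.000586) and 2.29 ± 0.18 for COL26A1 (adjusted p = 1.7e-05). Against DP the values in LG were 2.07 ± 0.24 (adjusted p = 0.000294), 1.02 ± 0.28 (adjusted p = 0.0195) and 1.77 ± 0.18 (adjusted p = 0.000157). The difference of COL21A1 from DP was the smallest, and it fell under the fold threshold without DP2 (0.659), without LG2 (0.876), with no scaling (0.964) and with scaling to the sum without the 10 highest genes (0.754). COL9A2 and COL9A3, which code for the other chains of type IX, reached at most 0.15 and 0.63 FPKM in any library. Of the cartilage markers, ACAN stayed at or under 0.26 FPKM, MATN1 at or under 0.05 and COMP at or under 0.17 except for 4.16 in DP3. SOX9 and CHAD, which other tissues also express, had 1.15 to 5.33 and 1.12 to 2.75 FPKM over all libraries, and neither was called in any comparison.

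Of the remaining genes, the transmembrane collagen COL13A1 had 0.41, 0.09 and 0.39 FPKM in LL, against 7.16, 8.29 and 3.58 in DP and 0.93, 0.75 and 1.76 in LG. It was called in DP against LL at 1.75 ± 0.27 (adjusted p = 0.000487) and in LG against DP at -1.44 ± 0.27 (adjusted p = 0.00282), and DP3 was its lowest DP library. The short-chain network gene COL8A2 had 0.06, 0.14 and 0.22 FPKM in LL, compared with 5.34, 3.6 and 34.2 in DP and 1.72, 4.30 and 3.57 in LG. Between DP and LL its log2 fold change was 2.56 ± 0.61 (adjusted p = 0.00595), and without DP3 this was 1.64. Between LG and LL it was 1.47 ± 0.61 (adjusted p = 0.0687), and it was called without DP2 (adjusted p = 0.0463) or DP3 (adjusted p = 0.000705). Its partner COL8A1 had 43.4 FPKM in DP3 and at most 1.27 in the 8 other libraries, and was not called.

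The epithelial anchors differed in neither comparison with LL by the rule used. COL17A1, the transmembrane collagen of hemidesmosomes, had 3.65 to 5.04 FPKM in LL, against 5.13 to 15.0 in DP and 9.47 to 13.2 in LG, and without DP2 it was called higher in LG than in DP (1.02, adjusted p = 0.00366). COL7A1, which forms anchoring fibrils, had 1.38 to 1.91 FPKM in LL, compared with 2.55 to 3.77 in DP and 2.45 to 2.60 in LG, a higher deposited level outside LL but log2 fold changes against LL of -0.36 ± 0.13 (DP) and -0.40 ± 0.13 (LG) after scaling. With no scaling COL7A1 was 0.623 and 0.41, so its sign depended on the scaling. COL28A1 stayed at or under 1.51 FPKM and was not called. The 14 genes not tested had a highest value of 1.95 FPKM (COL6A6 in DP2), and COL20A1 was listed at 0 in all but DP3.

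Summed over all members, collagen genes took 0.0136 to 0.0256% of the FPKM of a library in LL, against 0.146 to 0.637% in DP and 0.116 to 0.204% in LG. DP and LG overlapped, and both lay above LL. Leaving the 10 most abundant genes out of the total gave means of 0.11% in LL, compared with 0.721% in DP and 0.361% in LG. After scaling, the collagen sum was 314 to 398 in LL, against 577 to 2661 in DP and 709 to 1238 in LG. The share of COL3A1 in the collagen sum did not overlap between stages, with 17.4 to 22.2% in LL, compared with 24.7 to 30.02% in DP and 37.9 to 40.4% in LG.

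**Figure D3:**
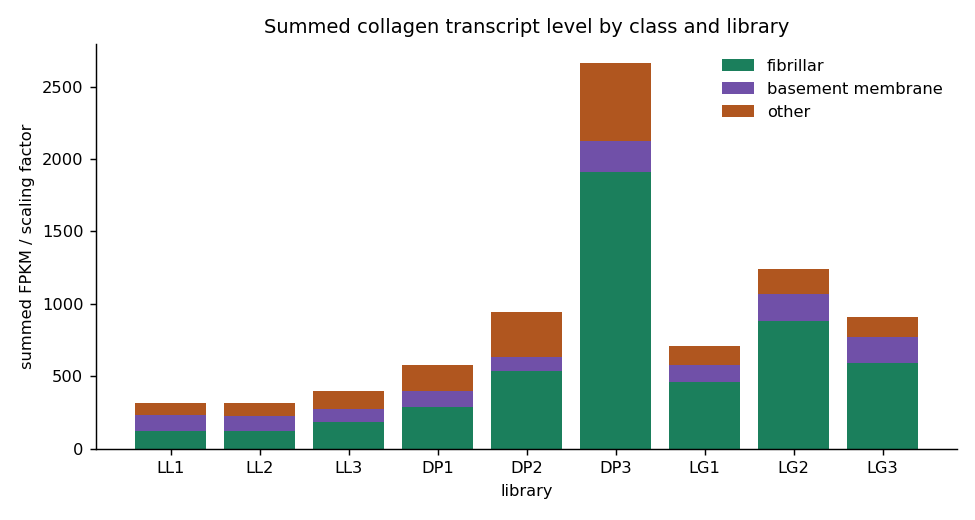
Summed FPKM divided by the scaling factor (y axis) of all 44 collagen genes in each of the 9 libraries (x axis), with stacked bars split into fibrillar, basement membrane and other genes. The LL bars reach 314 to 398, the LG bars 709 to 1238 and the DP bars 577, 944 and 2661, the last being DP3, and most of the added height is fibrillar.

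Ratios within a library do not depend on the scaling between libraries. The ratio of fibrillar to basement membrane FPKM was 1.13, 1.16 and 2.05 in LL, against 2.71, 5.95 and 9.05 in DP and 3.96, 4.84 and 3.34 in LG. All 6 DP and LG libraries lay above the 3 LL libraries, and LG lay within the range of DP. With 3 libraries against 3, an exact permutation test cannot give a two-sided p below 0.1, so these ratios are given without a test. The other collagens made up 25.8 to 30.9% of the collagen sum in LL, compared with 20.2 to 33.2% in DP and 13.8 to 18.4% in LG, where LG lay below both other stages.

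Ratios between chains of one collagen type mostly overlapped between stages, with exceptions in types I and IV. COL1A2 to COL1A1 was 2.37, 2.11 and 2.03 in LL, against 2.07, 2.004 and 1.96 in DP and 1.51, 1.38 and 1.83 in LG, so the 3 LG libraries lay below the 6 others, which overlapped. COL4A2 to COL4A1 was 0.565 to 0.705 in LL, compared with 0.596 to 0.678 in DP and 0.494 to 0.582 in LG, with LG below DP and overlapping LL. COL5A2 to COL5A1 overlapped in all stages, at 1.39 to 1.89, 1.19 to 2.10 and 1.64 to 1.998 in LL, DP and LG, as did COL3A1 to COL1A1, at 3.22 to 3.996, 2.42 to 4.02 and 3.10 to 5.69. Within type VI, COL6A2 to COL6A1 (1.52 to 2.03 in LL, against 1.02 to 1.82 in DP and 1.61 to 1.83 in LG) and COL6A3 to COL6A1 (0.587 to 1.27, 0.592 to 1.05 and 0.602 to 0.647) overlapped between stages too.

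Between types, in ratios picked after the values had been seen, COL6A1 to COL1A1 was 0.705, 0.720 and 0.815 in LL, compared with 0.963, 0.629 and 0.325 in DP and 0.241, 0.160 and 0.276 in LG. COL12A1 to COL1A1 was 0.394, 0.637 and 0.465 in LL, against 0.459, 0.245 and 0.247 in DP and 0.0625, 0.0588 and 0.1 in LG. In both ratios the 3 LG libraries lay below the 6 others, and DP overlapped LL for both. COL5A1 to COL1A1 was 0.234 to 0.316 in LL, compared with 0.161 to 0.267 in DP and 0.112 to 0.201 in LG, where LG lay below LL but overlapped DP.

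**Figure D4:**
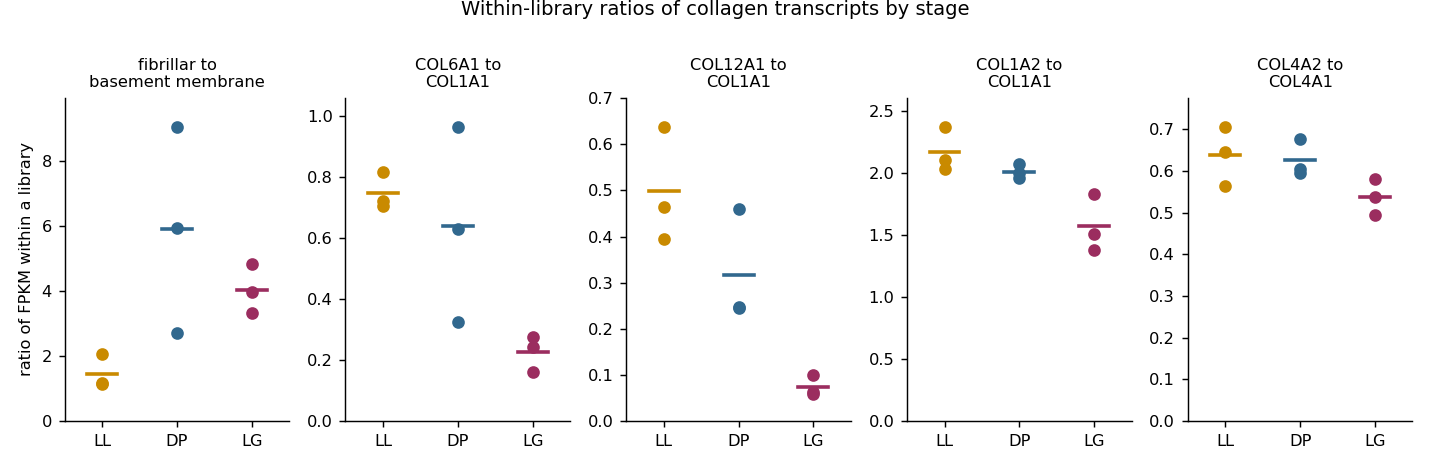
Ratios of FPKM within a library (y axis, from 0) by stage for fibrillar to basement membrane genes, COL6A1 to COL1A1, COL12A1 to COL1A1, COL1A2 to COL1A1 and COL4A2 to COL4A1; points are libraries and lines are means of 3. LL is lowest for the first ratio (1.13 to 2.05), and LG is lowest for COL6A1 to COL1A1 (0.160 to 0.276) and COL12A1 to COL1A1 (0.0588 to 0.1).

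Several collagen genes lie side by side in the genome, as read from the coordinates of the table, which names no build. COL4A1 and COL4A2 start head to head with 110 bases between them, and COL4A3 and COL4A4 do so with 34 bases between them. Both members of the first pair were abundant and both of the second stayed near 0 in all libraries. COL4A5 and COL4A6, 266 kb apart on the X chromosome, were both higher outside LL in the deposited values, and COL4A5 was called in DP and LG. COL3A1 and COL5A2 lie tail to tail 16.7 kb apart on chromosome 2 and were both called higher in DP and in LG than in LL. COL6A1 and COL6A2, 116 kb apart on chromosome 1, were both called higher in DP than in LL and lower in LG than in DP, while COL18A1, 385 kb before COL6A1, was called in DP against LL only. COL9A1 and COL19A1 lie tail to tail 9.4 kb apart on chromosome 14, and COL19A1 reached at most 0.15 FPKM in LG, where COL9A1 was highest.

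The genes that fold, cut and link collagen changed in part along with it. Of 20 folding and secretion genes tested, 8 were called higher and 3 lower in DP against LL (backgrounds 13.8% and 8.79%). In LG against LL 6 were called higher and 2 lower (backgrounds 10.7% and 6.61%). P4HA3, among the 8, reached 0.5 FPKM only in DP libraries, so it passed the filter through DP alone. SERPINH1, the collagen chaperone of the endoplasmic reticulum, had 5.08 to 6.31 FPKM in LL, against 31.3 to 100 in DP and 24.99 to 49.6 in LG, with log2 fold changes of 1.65 ± 0.40 (adjusted p = 0.00643) and 1.38 ± 0.40 (adjusted p = 0.0163). FKBP10, a prolyl isomerase of the same compartment, was called at 2.39 ± 0.35 in DP (adjusted p = 0.000421) and 1.78 ± 0.35 in LG (adjusted p = 0.00268). P4HB, the prolyl 4-hydroxylase subunit that is also a general disulfide isomerase, went the other way after scaling. Its log2 fold change was -1.73 ± 0.25 in DP (adjusted p = 0.000378) and -1.01 ± 0.25 in LG (adjusted p = 0.00823). The deposited P4HB values of LL overlapped those of both other stages. Their mean FPKM was 165.0 (LL), 134.6 (DP) and 183.8 (LG), so P4HB was lower in LG than in LL only after scaling. In LG against DP, P3H3 and CRTAP, which act in prolyl 3-hydroxylation, were called lower, and no folding gene was called higher, but without DP3 neither call was made.

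Propeptide cleavage and cross-linking genes were called higher in DP against LL for 5 of 12 tested (background 13.8%). Without DP3 this was 2 of 12, beside 1927 of all 14449 genes tested. In LG against LL it was 1 of 12, near the background of 10.7%. PCOLCE2, among the 5 called in DP, reached 0.5 FPKM outside DP only in LG3 (0.69), so it passed the filter through DP. ADAMTS2, which removes the amino-terminal propeptide of fibrillar procollagens, had 0.09 to 0.19 FPKM in LL, compared with 4.14 to 23.6 in DP and 3.05 to 4.88 in LG. It was the only gene of this list called higher in LG against LL, at 1.80 ± 0.44 (adjusted p = 0.00819), beside 2.58 ± 0.44 in DP (adjusted p = 0.00106), while TLL1, a propeptidase of the tolloid family, was called lower in LG. The cross-linking enzyme LOX had 0.73 to 1.76 FPKM in LL, against 6.78, 8.77 and 55.8 in DP and 3.96 to 6.03 in LG, and its call in DP (1.84 ± 0.61, adjusted p = 0.027) was not made in LG (0.67 ± 0.61, adjusted p = 0.382). Its DP estimate leans on DP3, the library with 55.8 FPKM, so DP and LG are not cleanly contrasted for LOX.

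Genes for proteins that sit on collagen fibrils were in part higher in DP than in LL and lower in LG than in DP. Of 14 fibril partner genes tested, 7 were called higher in DP against LL (background 13.8%), 0 higher and 2 lower in LG against LL (backgrounds 10.7% and 6.61%), and 6 lower in LG against DP (background 6.88%). Without DP3 the counts were 6 higher and 1 lower, 2 higher and 2 lower, and 1 higher and 5 lower. PRELP, among the 7 called in DP, reached 0.5 FPKM outside DP only in LG1 (0.50), so it passed the filter through DP. POSTN, periostin, had 0.78 to 4.27 FPKM in LL, compared with 49.5 to 61.8 in DP and 2.63 to 19.5 in LG, and its log2 fold change was 2.97 ± 0.55 in DP against LL (adjusted p = 0.00169) and -2.25 ± 0.55 in LG against DP (adjusted p = 0.012). DPT, dermatopontin, was called lower in LG than in both other stages, at -1.51 ± 0.53 against LL (adjusted p = 0.0383) and -3.50 ± 0.53 against DP (adjusted p = 0.00108). Its deposited values overlapped between LL (3.85 to 12.6 FPKM) and LG (2.85 to 6.52), while DP had 44.0 to 176. Of 12 basement membrane partner genes tested, 5 were called higher in DP against LL (background 13.8%), and without DP3 the DP count was 3. In LG against LL 1 was called higher, near the background of 10.7%, namely the laminin gene LAMA5, at 1.38 ± 0.23 (adjusted p = 0.0012). Of 10 receptor and uptake genes tested, 3 were called higher in DP against LL (ITGA2, MRC2 and CTSK, background 13.8%) and 0 in LG against LL (background 10.7%), and without DP3 1 of 9 was called higher in DP. The integrin gene ITGA2 had 3.67 to 4.02 FPKM in DP, beside at most 0.11 in LL and 0.42 in LG. It passed the filter only through the DP libraries. Its log2 fold change of 1.66 ± 0.12 in DP (adjusted p = 8.48e-06) is therefore not independent of the filter. P4HA2 and LAMB2 were not analysed here.

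Fibroblast and leukocyte markers were higher in DP, while 0 of 10 endothelial and 1 of 10 pericyte and smooth muscle markers were called higher there against LL. Of all genes tested, 13.8% were called higher in DP against LL. Of the 10 fibroblast markers, 9 were tested and 8 were called higher in DP against LL, 0 higher and 1 lower in LG against LL, and 7 lower in LG against DP, and TCF21 was at or under 0.07 FPKM. DPT is in this list and in that of the fibril partners. Without DP3 these counts were 6, 0 and 1, and 6. Their scaled sum was 96.3 to 138 in LL, against 248, 335 and 1070 in DP and 74.0 to 113 in LG, so that LG overlapped LL while the fibrillar collagen sum did not (120 to 185 in LL, compared with 289 to 1912 in DP and 462 to 884 in LG). Leukocyte markers were called higher in DP against LL for 3 of 5 tested, with a scaled sum of 31.8 to 43.2 in LL, against 65.3 to 133 in DP and 29.3 to 43.2 in LG. The pericyte and smooth muscle sum was 149 to 244 in all libraries but DP3, where it was 636, and the endothelial sum was 114 to 145 in LL, compared with 138 to 199 in DP and 73.7 to 104 in LG. PECAM1, whose values follow those of a neighbouring gene in a straight line, was the largest part of the endothelial sum in every library. In LG against LL its log2 fold change was -0.91, beside a median of -0.104 over the 10 endothelial markers, of which 0 were called. The part of these cell types in the collagen differences was not tested.

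Luminal epithelial markers had a scaled sum of 883 to 1150 in LL, against 313 to 567 in DP and 830 to 958 in LG. The lower DP sum came mostly from ELF5, at 266 to 374 FPKM in LL and 37.6 to 63.7 in DP. ELF5 was called lower in DP than in LL and LG, and no other luminal marker was called in DP against LL. Of the 8 markers, 6 were called in no comparison. The myoepithelial sum was 114 to 157 in LL, compared with 88.0 to 401 in DP and 157 to 221 in LG. It came mostly from KRT5 and KRT14, whose values follow those of neighbouring genes in a straight line. Against LL, 1 of 5 markers tested was called higher in DP and 2 in LG (TP63 in both and OXTR in LG, backgrounds 13.8% and 10.7%). KRT17 was not analysed here. Of the adipocyte markers, LEP was at or under 0.86 FPKM and ADRB3 at or under 0.04, and ADIPOQ was at or under 1.72 FPKM except for 19.3 in DP1. The adipocyte sum of 259 to 396 in LL, against 3.69 to 21.4 in DP and 20.8 to 23.8 in LG came mostly from CIDEA in LL and LG, though not in DP, and CIDEA is also expressed in lactating epithelium. The cartilage sum was 2.21 to 8.72 in all libraries.

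The most abundant fibrillar genes were not called between LG and DP. COL1A1, COL1A2, COL3A1, COL5A1 and COL5A2 had log2 fold changes of -0.25, -0.61, 0.26, -0.50 and -0.28, with adjusted p of 0.808, 0.498, 0.734, 0.463 and 0.611, and none was called. Without DP3 they were 0.603, 0.228, 0.976, 0.200 and 0.252. Of the 7 genes called lower, 1 was fibrillar (COL27A1), 0 were basement membrane genes and 6 were others (COL6A1, COL6A2, COL6A3, COL12A1, COL13A1 and COL14A1). The 3 called higher were also others (COL9A1, COL21A1 and COL26A1). Without DP3, 5 genes were called higher and 6 lower in LG against DP, where 907 and 903 of all 14449 genes tested were.

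**Figure D5:**
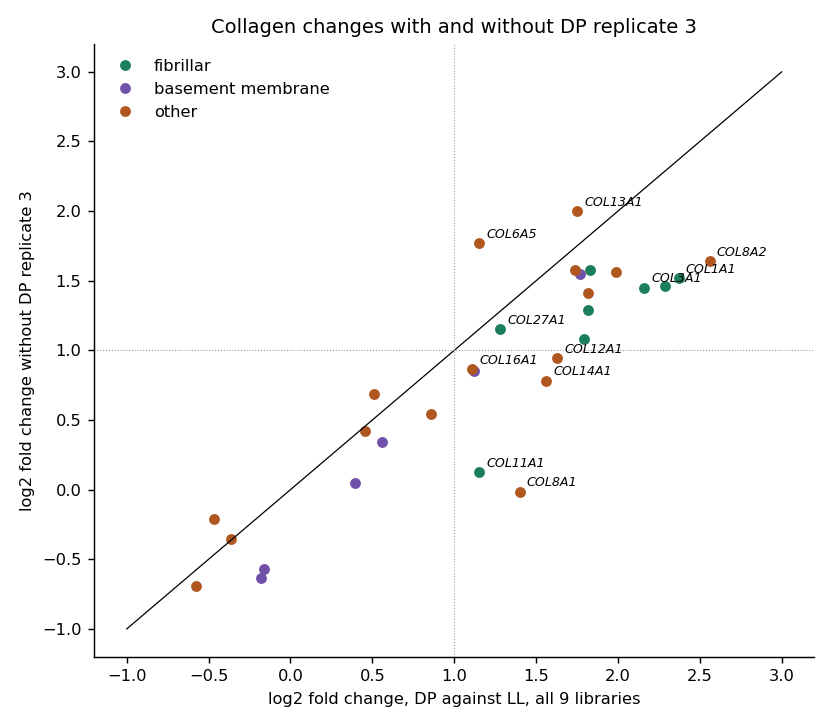
Log2 fold change in DP against LL of each tested collagen gene with all 9 libraries (x axis) and without DP3 (y axis), coloured by class, with the line of equal values and dotted lines at a log2 fold change of 1. COL1A1 falls from 2.37 to 1.52, COL8A1 from 1.40 to -0.01 and COL11A1 from 1.15 to 0.125, while COL13A1 goes from 1.75 to 2, and the fibrillar genes other than COL11A1 remain above 1.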

How the data were processed

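Gene expression was measured in 9 mammary gland libraries. The table the authors deposited holds 9 columns of FPKM per gene for 23499 genes and names no unit; the values were read as FPKM that the authors computed, because of their decimals and unequal sums. Per the labels, FastQC, Trimmomatic, HISAT2, SAMtools and HTSeq were used, without versions, and the library kit is not stated to keep strand. FPKM carry no read count, so depth is unknown here, and neither a count test nor a counting error was computed. Gene symbols and coordinates are those of the table; 23465 identifiers matched the RefSeq table of ARS1.2, with identical coordinates, among them all 44 collagen genes. No sequence of these genes was used here.

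Values were divided by median-ratio factors from 15905 genes, 1 was added and log2 was taken, which understates the change of low genes. Of all genes, 14701 reached 0.5 FPKM in 3 or more libraries, and for these a linear model without covariates was fitted over the 9 libraries together in limma 3.58.1 (R 4.3.3; eBayes moderation with trend). Tests were two-sided, with Benjamini-Hochberg adjustment over all genes tested. Each library is 1 goat. The fit was tested on simulated data. Tables and figures were made with Python 3.11.15, pandas 2.3.3 and matplotlib 3.10.9.

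Named genes are the 4 members of each class with the highest mean, the chain partners, up to 3 called members per class, comparison and direction, and up to 3 called genes of each pathway list; COL4A6, COL6A5, COL7A1, COL8A1, COL11A1, COL13A1, COL17A1, COL27A1 and COL28A1 are given for completeness. The members, lists and tests were chosen with earlier results of these data known. Some neighbouring genes in the table have values that follow each other in a straight line within 1% of their range. Among 15945 genes searched 1511 were so linked, none of them a collagen, and 35 collagens were searched. Of the genes in the pathway and marker lists, TLL2, FMOD, ITGA1, PECAM1, KRT5 and KRT14 were linked. Replicate numbers do not pair goats, since each library came from a different goat at slaughter. Deviations of libraries with the same number correlated at r = -0.106 to 0.201, which by itself could not show this. Alternatives were other scalings, pseudocounts, filters, fits and calls, linked genes left out, and each library left out in turn.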

Additional observations from a re-analysis of the deposited data

How the results depend on the processing

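Scaling mattered most: with no scaling all genes shifted by a median of 1.09 (DP against LL), 0.93 (LG against LL) and -0.18 (LG against DP), and with scaling to the sum without the 10 highest genes by 0.57, 0.20 and -0.36. With no scaling the median log2 fold change was 3.04, 1.46 and 2.21 for fibrillar, basement membrane and other collagens in DP against LL and 2.42, 1.69 and 1.32 in LG against LL, 20 collagen genes were called higher in LG against LL, where 45.6% of all genes were, COL4A1 and COL4A2 were 1.21 and 1.17 in DP against LL, COL6A3 was 1.01 in LG against LL and COL16A1 was -0.22 in LG against DP. With scaling to the sum without the 10 highest genes, the median of other collagens in DP against LL was 1.76 and that of basement membrane collagens in LG against DP -0.152, COL4A1 and COL4A2 were 0.53 and 0.51 in DP against LL, COL6A3 was 0.17 in LG against LL, and COL3A1 and COL16A1 were -0.21 and -0.45 in LG against DP. With quantile normalization COL4A1 and COL4A2 were 0.35 and 0.21 in DP against LL, and COL3A1 and COL16A1 -0.88 and -0.24 in LG against DP. With a pseudocount of 0.1 the median of other collagens was 1.75 in DP against LL and that of fibrillar collagens 1.94 in LG against LL, where 1 collagen gene was called lower. With no filter the medians of other collagens were 0.453 (DP against LL), 0.0207 (LG against LL) and -0.0985 (LG against DP), and that of basement membrane collagens in LG against DP was -0.00474. The cause was not tested, except that no filter adds genes near 0. On an adjusted p alone, 1 collagen gene was lower in DP against LL and 2 in LG against LL. By construction, other definitions gave other levels: without the 10 highest genes in the total, the mean collagen share was 0.11%, 0.721% and 0.361% in LL, DP and LG, with type IV alone as basement membrane the fibrillar ratio was 2.16, 11.5 and 6.02, and COL1A1 over COL4A1 was 0.495 in LL and 1.38 in LG.

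With each library left out in turn, collagen genes called higher were 13 to 19 (DP against LL), 7 to 12 (LG against LL) and 2 to 5 (LG against DP), and those called lower 6 to 7 in LG against DP. The median of fibrillar collagens was -0.777 to 0.24 in LG against DP, positive only without DP3, that of basement membrane collagens -0.0416 to 0.515, negative only without DP2, and that of other collagens -0.935 to -0.276 in LG against DP and 0.823 to 1.59 in DP against LL. In DP against LL, COL4A1 was -0.569 to 0.079 and COL4A2 -0.636 to 0.0814. In LG against LL, COL6A3 was -0.42 to 0.23. In LG against DP, COL1A1 was -0.99 to 0.60, COL1A2 -1.33 to 0.23, COL3A1 -0.26 to 0.98, COL5A1 -0.98 to 0.20, COL5A2 -0.55 to 0.25 and COL16A1 -0.21 to 0.26. With the replicate number as a block, 17, 12 and 3 collagen genes were called higher in the 3 comparisons and 7 lower in LG against DP; no pairing of goats stands behind the numbers. Of 1000 values of single collagen genes under the alternatives, 926 kept their direction and side of the threshold.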
